A study of Solanum lycopersicum with 6 samples.

Results

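The TBG genes of tomato encode the fruit beta-galactosidases, and all probe sets annotated with a symbol made of TBG and a number were taken. The match used symbols only, but the rule was chosen with earlier results of these data known. This rule found 7 probe sets among the 10101 tested, 1 for each of TBG1 to TBG7. Transcript levels had been measured in mature green fruit of Micro-Tom, a dwarf tomato cultivar, on 1-colour arrays hybridized with biotin-labelled cRNA. The 3 drought arrays came from plants given liquid fertilizer at a 500-fold dilution once a week. The 3 control arrays came from plants under normal conditions that received the same dilution. The fertilizer solution carries both water and nutrients, and how often control plants received it is not given in the labels, so water and nutrient supply cannot be told apart here. The greenhouse was set to 25 °C for the day and 20 °C for the evening, and fruit was picked 30 to 40 days after flowering. Whether the arrays of 1 group were made from different plants is not stated in the labels, and p-values cover only the variation among these arrays, part or all of which could be technical. In whole fruit, fewer cells of a type and less RNA per cell cannot be told apart.

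Beta-galactosidases of plants remove galactose from the ends of sugar chains. In the fruit cell wall their substrate includes the galactan side chains of pectin, and the loss of galactose from the wall is a well-known part of tomato ripening and softening. The members are known to be expressed at different stages of fruit growth and ripening. TBG4 encodes beta-galactosidase II, an exo-galactanase of ripening fruit whose suppression is known to give firmer fruit. TBG6 is known from young, growing fruit. TBG7 differs from the others in a predicted plastid-targeting sequence.

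In the deposited values most transcripts hardly varied. The range over the 6 arrays was under 0.001 on the log2 scale in 75.7% of the tested probe sets, with a median of 0.000129, and 268 probe sets had a range over 0.1. The array maker's 27 bacterial and phage spike-in probe sets, which detect no tomato transcript, reached a range of at most 0.000467, and its 22 tomato control probe sets a range of at most 0.0200 with a median of 0.00109. A difference in these values may therefore not equal a measured fold change. Control replicate 3 stood apart from its group, and in 188 of the 268 probe sets with a range over 0.1 it lay nearer the drought mean than the mean of the other two controls. The tissue label was set beside fixed markers, whose positions on the arrays were mixed. Of the chlorophyll a/b-binding protein genes of green tissue, CAB6A lay at the 91.3rd to 91.5th percentile, CAB4 at the 79.9th to 80.8th and CAB5 at the 35.9th to 40.2nd. Of the ripe fruit markers, the polygalacturonase gene PG2 lay at the 6.46th to 6.47th percentile, RIN at the 6.03rd to 14.8th and ACS2 at the 8.75th to 8.77th. ACS4 lay at the 26.1st to 26.3rd, NOR at the 27.0th to 28.0th and E8 at the 34.6th to 38.8th. The 3 probe sets of the phytoene synthase gene Psy1 lay at the 13.8th to 13.9th, the 35.9th to 36.1st and the 85.2nd to 85.4th. The MADS-box gene TDR4 lay at the 86.4th to 86.7th. Since probe sets differ in brightness, these positions do not settle the stage of the fruit.

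Of the 7 TBG genes, 5 had higher and 2 had lower mean values in drought, and 0 passed the test across all probe sets (limma, Benjamini-Hochberg adjusted p under 0.05). Across all tested probe sets 0.762% passed it. At an unadjusted p under 0.05 there were 4 TBG genes, 3 higher and 1 lower, against 25.0% of all probe sets (15.9% higher, 9.12% lower), and with the unmoderated variance of each probe set 0 of the 7 passed after adjustment. The arrays of the groups did not overlap for 4 of the 7 genes (57.1%), TBG7, TBG5 and TBG4 on the higher side and TBG6 on the lower side. This was the case for 34.8% of all probe sets, 20.5% higher and 14.3% lower. The median difference of the family was 0.00079 on the log2 scale, against -1.1e-07 over all tested probe sets, and its median absolute difference was 0.00079, against 4.5e-05.

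**Figure D1:**
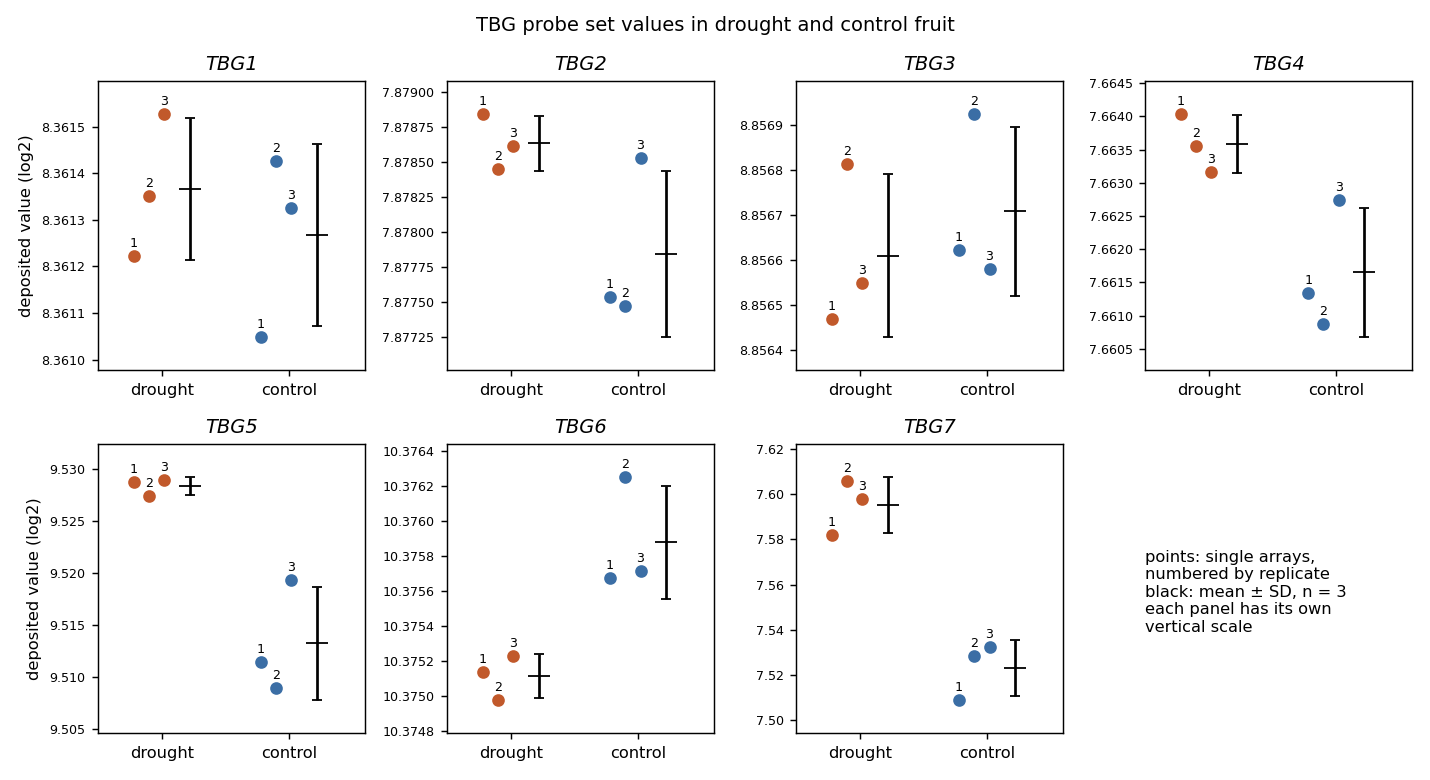
Deposited log2 values of the 7 TBG probe sets (vertical axes, each on its own scale) in the 3 drought and 3 control arrays, with points for single arrays numbered by replicate and black marks for mean ± SD. The drought points of TBG7, TBG5 and TBG4 all lie above their control points, those of TBG6 all lie below, and the points of TBG1, TBG2 and TBG3 overlap.

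TBG7 had the largest difference of the family. Its values were 7.5818, 7.6060 and 7.5979 in drought replicates 1 to 3, against 7.5092, 7.5283 and 7.5322 in control replicates 1 to 3. The lowest drought array lay 0.0496 above the highest control array, a gap wider than the spread within drought (0.0242) or within control (0.0230). The means were 7.595 ± 0.012 in drought and 7.523 ± 0.012 in control (SD, n = 3 each). The difference of 0.072 ± 0.0096 (SE, 95% interval 0.0462 to 0.0978) had a limma adjusted p of 0.0539, just outside the threshold. Taken as a fold change it would be an increase of 5.12%, which holds only if the deposited scale keeps measured ratios. In size it stood 202nd among the 10101 tested probe sets, and 1.99% of them differed by more. The range of TBG7 over the 6 arrays, 0.0968, was 207 times the largest spike-in range, and was also above that of every tomato control probe set. Control replicate 3 lay 17.6% of the way from the other controls to the drought mean, so it lay near the other controls here.

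TBG5, another member of the family expressed in fruit, was the next in size. Its values were 9.5288, 9.5274 and 9.5290 in drought, against 9.5114, 9.5089 and 9.5193 in control. The drought arrays lay within 0.0015 of each other, whereas the control arrays spanned 0.0104, and control replicate 3 stood 50.2% of the way from the other controls to the drought mean. The difference was 0.015 ± 0.0030 (SE, 95% interval 0.0070 to 0.0233), with a limma adjusted p of 0.0836. Without control replicate 3 it was 0.018 with an adjusted p of 0.0229, and with array weights 0.016 with an adjusted p of 0.0490. After median centring, where most probe sets passed, it was 0.0096 with an adjusted p of 0.0201. The range of TBG5, 0.0200, was 42.8 times the largest spike-in range and about that of the most variable tomato control probe set.

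TBG4, the exo-galactanase gene of ripening, had a smaller difference than TBG5. Its values were 7.6640, 7.6636 and 7.6632 in drought, against 7.6613, 7.6609 and 7.6627 in control. All drought arrays lay above all controls, but by a gap of 0.00042, smaller than the span of the drought arrays (0.00087) and of the control arrays (0.0019). The difference was 0.0019 ± 0.00059 (SE, limma adjusted p = 0.151). It was -0.0022 after quantile normalization and -0.0036 after median centring of the arrays, where the drought arrays had medians of 7.9048 to 7.9072 and the control arrays of 7.8974 to 7.9021.

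TBG6, the member known from growing fruit, was the only one with all drought arrays below all controls on the values as deposited. Its values were 10.3751, 10.3750 and 10.3752 in drought, against 10.3757, 10.3762 and 10.3757 in control. The groups were 0.00044 apart, and the control arrays spanned 0.00058 among themselves. The difference of -0.00076 ± 0.00019 (SE, 95% interval -0.0013 to -0.00025, limma adjusted p = 0.115) was larger in size than the largest spike-in range of 0.000467, but smaller than the median range of the tomato control probe sets. It stayed below 0 without any single array, from -0.00087 to -0.00058.

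TBG1, TBG2 and TBG3 had overlapping groups. TBG2 had values of 7.8788, 7.8784 and 7.8786 in drought and 7.8775, 7.8775 and 7.8785 in control, and the overlap came from control replicate 3 alone, which lay 90.7% of the way to the drought mean. Its difference was 0.00079 ± 0.00035 (SE), with a limma adjusted p of 0.252. In the fit that left out control replicate 3 it was 0.0011 with an adjusted p of 0.0491. TBG1 and TBG3 varied about as much as the most variable spike-in probe set. The range over the 6 arrays was 0.00048 for TBG1 and 0.00046 for TBG3, which is 1.02 and 0.976 times the largest spike-in range. Of all tested probe sets, 32.3% had a larger range than TBG1 and 32.9% than TBG3, so most of the array varied less. TBG1 averaged 8.36137 in drought and 8.36127 in control, and TBG3 averaged 8.85661 in drought and 8.85671 in control. The 95% interval of the difference was -0.00027 to 0.00047 for TBG1 and -0.00049 to 0.00029 for TBG3 (limma adjusted p = 0.720 and 0.737). On this scale, an interval that narrow says how little the deposited values moved, not how little the transcripts did.

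**Figure D2:**
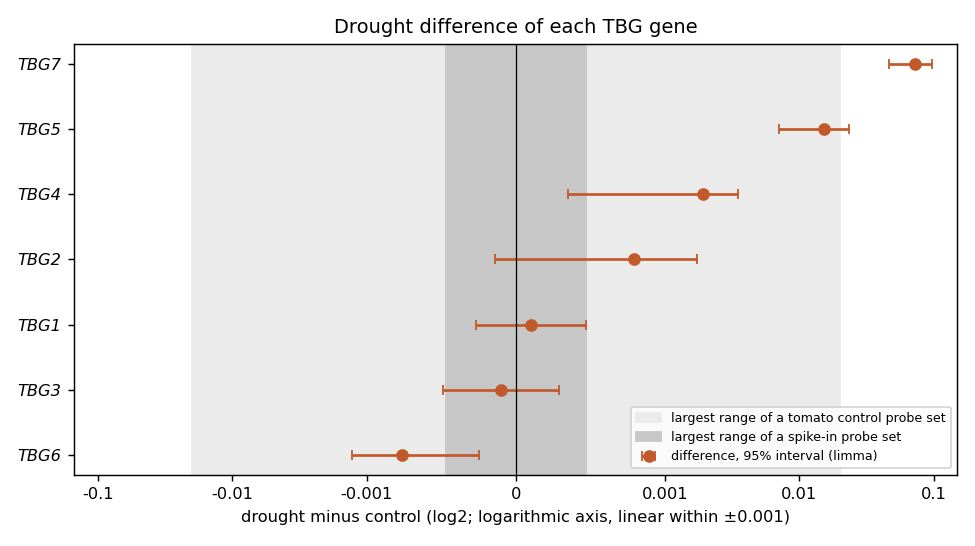
Drought minus control for each TBG gene (horizontal axis, log2, logarithmic beyond ±0.001), with points for the fitted difference and bars for its 95% interval. The dark band marks plus and minus the largest spike-in range (0.000467) and the light band plus and minus the largest tomato control range (0.0200), and only the interval of TBG7, from 0.0462, lies wholly outside both.

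The position of each probe set on its array was stable. The probe set of TBG6 lay between the 88.7th and 88.8th percentiles of the 6 arrays, that of TBG5 between the 78.9th and 79.1st, that of TBG3 at the 68.3rd to 68.4th and that of TBG1 at the 58.5th to 58.7th. The probe set of TBG2 lay at the 49.4th to 49.5th percentile, that of TBG4 at the 44.8th to 44.9th and that of TBG7 at the 41.9th to 43.7th. None was among the dimmest 30% of probe sets. Probe sets differ in brightness for the same amount of RNA, so these positions do not rank the transcripts. By SD, the control arrays spread more than the drought arrays in 6 of the 7 genes, as in 71.3% of all probe sets. The spreads were alike in TBG7 and nearly so in TBG3 (SD 0.000188 in control and 0.000181 in drought).

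Whether members differed from each other in their drought difference was tested within arrays, where a shift of a whole array cancels. The difference between 2 members was taken on each array and compared between drought and control with an exact two-sided permutation test, for 21 pairs. With 3 against 3 arrays this test cannot go below 0.1. In 18 pairs the arrays did not overlap and p was 0.1, the smallest possible, which was 0.117 after Benjamini-Hochberg adjustment. No pair could therefore pass the threshold. All 6 pairs with TBG7 were separated, by 0.057 ± 0.0098 (SE) against TBG5 and by 0.070 ± 0.010 against TBG4, and up to 0.073 ± 0.010 against TBG6. When TBG7 was set against each other probe set of the array in the same way, 98.7% were separated, so this is shared with most of the array and not particular to the family. All pairs with TBG5 were separated too, by 0.013 ± 0.0026 against TBG4 and 0.016 ± 0.0033 against TBG6, where the share over the array was 96.7%. TBG4 and TBG6 differed by 0.0027 ± 0.00075, and TBG4 was separated from 86.7% and TBG6 from 83.8% of the other probe sets. The 3 pairs among TBG1, TBG2 and TBG3 overlapped, with differences of 0.00020 ± 0.00016 for TBG1 over TBG3, 0.00069 ± 0.00038 for TBG2 over TBG1 and 0.00089 ± 0.00047 for TBG2 over TBG3. The exact p was 0.2, 0.3 and 0.2. The shares over the array were 14.5% for TBG1, 19.3% for TBG2 and 14.2% for TBG3.

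Other genes of wall breakdown and growth were read beside the family from a list of symbols that covered pectin methylesterases, polygalacturonases, xyloglucan endotransglucosylases, expansins, cellulases, mannanases and xylosidases. It held 41 probe sets of 38 genes, and 20 had higher and 21 lower means in drought. In all, 1 probe set passed the test (0 higher, 1 lower), where 0.525% of all probe sets passed upward and 0.238% downward. It was PME2.1, a pectin methylesterase gene, which fell by 0.014 (SE 0.0013, limma adjusted p = 0.0482), and it passed without control replicate 3 (adjusted p = 0.0407) but not without any one of the other 5 arrays (0.0898 to 0.188), after quantile normalization (0.0725) or with the replicate block (0.188). Its values were 10.5435, 10.5470 and 10.5462 in drought, against 10.5611, 10.5587 and 10.5584 in control. At an unadjusted p under 0.05 there were 15 of the 41, 9 higher and 6 lower, and the arrays of 11 were separated upward and of 8 downward. Over all tested probe sets 25.0% had such a p (15.9% higher, 9.12% lower), and 20.5% were separated upward and 14.3% downward. The median absolute difference of the list was 0.0017, against 0.00079 for the TBG genes.

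XYL1, annotated with the symbol of a xylosidase of the wall, came next after PME2.1. Its values were 6.0847, 6.0888 and 6.0864 in drought, against 6.0694, 6.0701 and 6.0743 in control, a difference of 0.015 ± 0.0019 (SE) with the same limma adjusted p as TBG7, 0.0539. It passed without control replicate 3 (adjusted p = 0.0331) and with array weights (0.0443). It did not pass without any other single array (0.114 to 0.209) or after quantile normalization (0.0653). Nor did it with the replicate block (0.179) or unmoderated variances (0.0789). XYL1 was among the dimmest 30% of probe sets, at the 10.6th to 11.1st percentile. The expansin gene exp18 differed by 0.11 ± 0.017 (adjusted p = 0.0633), the pectinesterase gene PE1 by -0.00041 ± 7.2e-05 (adjusted p = 0.0711), and the xyloglucan endotransglucosylase gene XTH6 by 0.053 ± 0.012 (adjusted p = 0.103). PE1 passed without control replicate 3 (adjusted p = 0.0492) but not without any other single array (0.149 to 0.223). Its difference was -0.025 after quantile normalization (0.163). In all of these the drought and control arrays did not overlap, against 34.8% of all probe sets. A choice by the smallest p favours separated arrays, so this adds no support. The largest differences in the list, of either sign, ran from -0.40 for XTH3 to 0.21 for XTH16, so that TBG7 lay inside the range of wall genes. XTH3 had overlapping arrays (SE 0.25, limma adjusted p = 0.403). The probe set of XTH16 with the largest difference had an SE of 0.069 (adjusted p = 0.165). Its other probe sets differed by 0.207 (adjusted p = 0.239) and 0.078 (adjusted p = 0.195).

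**Figure D3:**
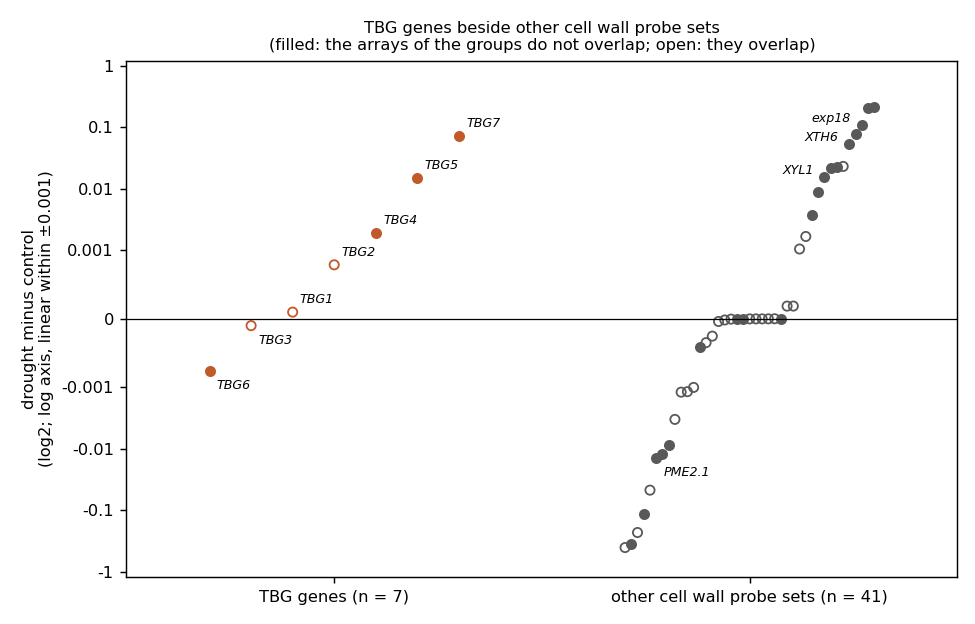
Drought minus control (vertical axis, log2, logarithmic beyond ±0.001) for the 7 TBG genes and the 41 other cell wall probe sets, sorted from lowest to highest within each set, filled where drought and control arrays do not overlap. TBG7 (0.072) and TBG5 (0.015) lie among the upper values of the other cell wall probe sets, which run from -0.40 to 0.21.

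Among 186 probe sets with 1 gene symbol and a range of at least 0.01, the patterns most like those of the TBG genes were found by Pearson's correlation over the 6 arrays, as a description. All points share the same arrays, and drought and control differ as groups, so a high value can reflect the groups alone. For TBG7 these were CDKB2, a cyclin-dependent kinase gene (r = 0.994), XYL1 (0.988) and the gibberellin 20-oxidase gene 20ox-2 (0.987). For both TBG4 (r = 0.991) and TBG2 (0.980) the closest was MAN2, named for a mannanase of the wall. The probe sets of MAN2 and XYL1 were dim, at the 5.93rd to 6.97th and the 10.6th to 11.1st percentile of the arrays. TBG5 was closest to gad2 (0.988), MYB (0.988) and LOC543898 (0.988), and MYB was also next for TBG4 (0.991), with SAR2 after it (0.976). TBG2 had AGL11 (0.959) and MYB (0.956) after MAN2. TBG6, the member with lower drought values, was closest to the chitinase gene CHI9 (0.982), the MADS-box gene MADS1 (0.981) and LOC543758 (0.966). All of them were separated downward in drought, against 14.3% of all probe sets. They were picked for likeness to TBG6, which was itself separated downward, so this adds no support. TBG1 and TBG3, which had the smallest ranges of the family, had weaker neighbours. These were LOC544001 (0.809), exp9 (0.759) and lin5 (0.736) for TBG1, and LOC544264 (0.774), XTH7 (0.719) and GS2 (0.713) for TBG3.

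Ripening markers and epidermal markers were read beside the family, since TBG4 is known to follow ripening. Of 10 probe sets of ripe fruit markers, 3 of them for Psy1, 9 had lower means in drought, as had 5133 of all 10101 tested probe sets. For E8 and NOR the lower mean came from control replicate 1 alone (7.3585 and 6.8027). Control replicates 2 and 3 (7.1492 and 7.1543 for E8, 6.7618 and 6.7614 for NOR) lay below all drought arrays. Of the 10, 0 passed the limma test and 2 had an unadjusted p under 0.05, both lower, namely TDR4 and 1 probe set of Psy1. The share over all probe sets was 25.0% (9.12% lower). The arrays of 4 of the 10 were separated downward and of 0 upward, against 14.3% and 20.5% of all probe sets. These were RIN, TDR4 (-0.018), the same Psy1 probe set (-4.8e-05) and PG2 (-2.05e-06). The differences of PG2 and of this Psy1 probe set were smaller in size than the largest spike-in range of 0.000467. RIN, the MADS-box ripening regulator, differed by -0.14 ± 0.058 (SE, limma adjusted p = 0.232). Its unadjusted p was above 0.05, though all its drought arrays lay below all its controls. Control replicate 1 of RIN (6.2009) lay above control replicates 2 and 3 (6.0389 and 6.0046). All 3 epidermal lipid transfer protein genes had lower means in drought, and 0 passed the limma test (2 at an unadjusted p under 0.05, against the same 25.0% of all probe sets). The arrays of 2 of them were separated downward, against 14.3% of all probe sets. TSW12 among them differed by -0.020 ± 0.0033 (adjusted p = 0.0636). The 3 chlorophyll a/b-binding protein genes had 0 calls in limma, 0 at an unadjusted p under 0.05 and 0 with separated arrays. Their part in the TBG values was not tested.

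**Figure D4:**
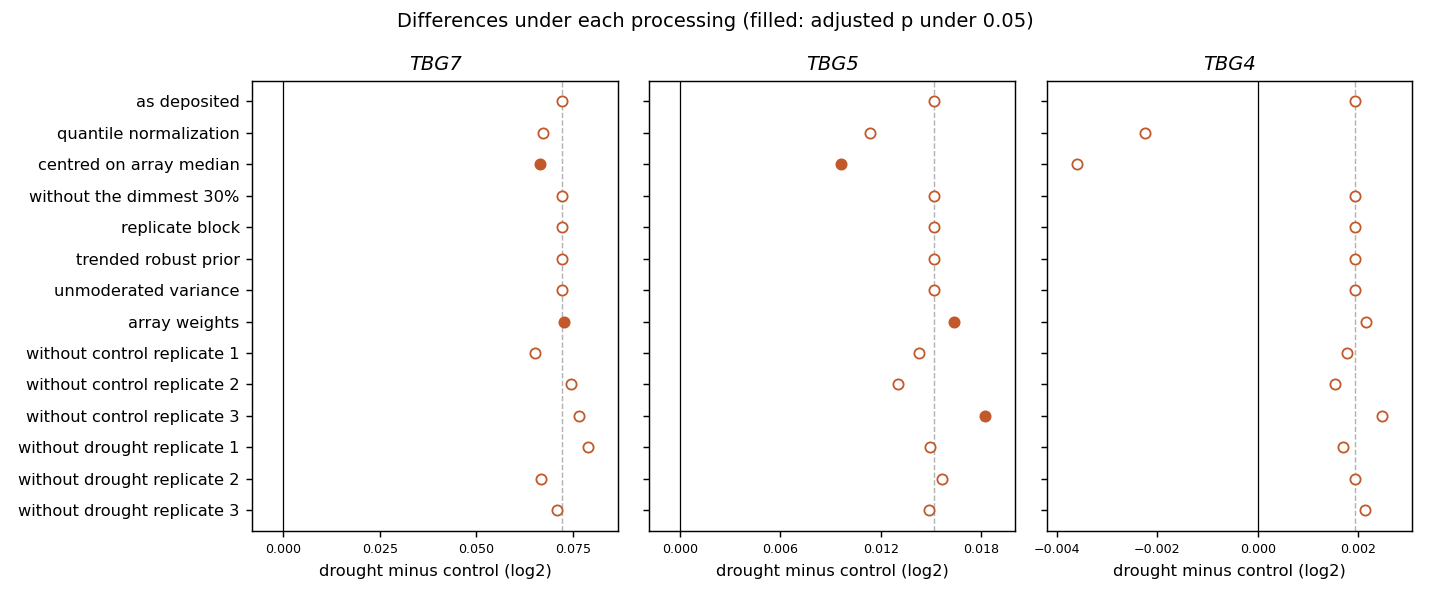
Drought minus control (horizontal axes, log2) of TBG7, TBG5 and TBG4 on the values as deposited and under each other processing (rows), filled where the adjusted p was under 0.05, with a dashed line at the deposited value. TBG7 stays between 0.065 and 0.079 and TBG5 above 0 throughout, and TBG4 lies below 0 after quantile normalization and after centring.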

How the data were processed

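The authors deposited 1 table of probe set summaries for 6 arrays, taken here as log2 from the values (5.46 to 15.8). The log base, background correction, normalization and summary method are not given in the sources used here. Per the labels' protocols, RNA was extracted with TRIzol, cleaned on RNeasy columns, and 100 ng was labelled. Samples were grouped by title. From 10209 probe sets, 108 control probe sets were left out. Gene symbols came from the platform annotation (909 probe sets with 1 symbol, 0 with several, 9192 with none), and all 7 TBG gene identifiers matched a RefSeq gene table.

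The groups were fitted with limma 3.58.1 under R 4.3.3 (drought minus control, moderated variances, two-sided, Benjamini-Hochberg over 10101 probe sets, threshold 0.05), without a filter, block or pseudocount. The procedure was run on simulated data, where the recovery required was only of changes far larger than those of the TBG genes. Pairs of TBG genes were compared with scipy 1.17.1. Named were all TBG genes, the 3 most similar symbols for each, and, of the other cell wall probe sets, all that passed or the 5 with the smallest p. XTH3 and XTH16 and the markers given with values were named after their values were seen. The members, lists and rule were chosen with earlier results of these data known. Alternatives were quantile normalization, median centring, leaving out the dimmest 30%, the replicate block, a trended robust prior, unmoderated variances, array weights and leaving out each array. Deviations of same-numbered arrays from their group means correlated at -0.092, -0.023 and -0.11, which gave no sign of pairing by number. Such correlations cannot exclude a pairing, and the labels state none. The number of arrays limits the precision.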

Additional observations from a re-analysis of the deposited data

How the results depend on the processing

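The sign held in all 13 other processings for TBG5, TBG6 and TBG7, but some of these could not change it. Leaving out the dimmest probe sets, the replicate block, the trended robust prior and unmoderated variances give the main difference by construction. Only the remaining processings could test the sign. Centring each array on its median shifted all differences by -0.0055, so that TBG6 could only stay below 0. With centring 9406 probe sets (214 higher, 9192 lower) passed, against 77 (53 higher, 24 lower) as deposited. After centring 6 of the 7 TBG genes passed, TBG7 (0.066), TBG5 (0.0096), TBG3 (-0.0056), TBG6 (-0.0063), TBG1 (-0.0054) and TBG2 (-0.0047), and TBG4 (-0.0036, adjusted p = 0.0698) did not. TBG1, TBG2 and TBG4 thereby turned negative, as they did after quantile normalization (-0.0040, -0.0044 and -0.0022), where none of them passed. With array weights TBG7 (0.073) and TBG5 (0.016) passed. Over the 6 leave-one-out fits TBG7 ran from 0.065 to 0.079 and its adjusted p from 0.0554 to 0.214, TBG5 from 0.013 to 0.018, TBG4 from 0.0015 to 0.0025, TBG2 from 0.00060 to 0.0011, TBG6 from -0.00087 to -0.00058, TBG1 from -9.9e-06 (without control replicate 1) to 0.00018, and TBG3 from -0.00020 to 9.2e-06 (without control replicate 2).

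The count of probe sets passing was 0 after quantile normalization (2966 at an unadjusted p under 0.05 in limma), 7 with unmoderated variances and 391 with array weights. Without single arrays it ran from 0 (without control replicate 2 or drought replicate 3) to 546 (without control replicate 3), at 7 without control replicate 1 and 1 without drought replicate 1 or 2. For other cell wall probe sets it was 1 as deposited, 0 after quantile normalization (22 unadjusted) and with unmoderated variances (14 unadjusted), 34 after centring, 2 with array weights, and 0 to 6 without single arrays, where 6 was without control replicate 3. With the replicate block 0 probe sets passed (1752 unadjusted), of the cell wall list 0 (8 unadjusted), and TBG7 had an adjusted p of 0.115. In 0 of 6 arrays did deviations correlate best with the same-numbered array.

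Of 168 pair values under an alternative, 163 kept their direction. Those with the replicate block equal the main value by construction and could not change. The 5 that did not came from quantile normalization, TBG4 over TBG3 (-0.0016), TBG2 over TBG1 (-0.00042), TBG2 over TBG3 (-0.0038), TBG2 over TBG6 (-1.1e-05) and TBG1 over TBG3 (-0.0034). The cause of these changes was not tested. Averaging several probe sets of a gene gave no value, since each TBG gene had 1.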
